A study of Homo sapiens with 8 samples.

Results

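The 9 small nucleolar RNA (snoRNA) host genes SNHG1, SNHG5, SNHG6, SNHG7, SNHG8, SNHG12, SNHG15, GAS5 and ZFAS1 were followed through 8 RNA-seq libraries of human liver cancer cells. They were taken from the 63241 genes in the expression files by matching the Ensembl gene identifier of each row to these symbols, and all 9 were found. All 9 also reached 1 FPKM (fragments per kilobase of transcript, scaled to the number mapped in the library) in at least 2 libraries, the level required of the 15173 genes that were tested. The genes had been selected on measured values, with their FPKM difference between sorafenib-resistant and parental cells already in view. That difference is therefore given here as a description, with no test of it for these 9 genes.

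HepG2 and Huh7 are established lines from human liver tumors. HepG2 WT and Huh7 WT were the parental cells, labelled as sorafenib-sensitive controls. HepG2 SR and Huh7 SR were their resistant derivatives, obtained by growing the cells in rising concentrations of the kinase inhibitor sorafenib. Each group held 2 libraries made from polyadenylated RNA, all labelled as the same batch, and no source used here says whether the 2 came from separate cultures, so the spread between them may be technical. Each resistant group was a derived line, and the spread between its libraries does not show how another derivation would differ.

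A snoRNA host gene carries snoRNAs inside its introns. After splicing, the intron is trimmed to release the snoRNA, which guides the methylation (box C/D type) or pseudouridylation (box H/ACA type) of ribosomal and other RNAs. In a noncoding host the joined exons encode no known functional protein, and the spliced RNA is often bound by ribosomes and removed by nonsense-mediated decay, so that its level depends on translation as well as on transcription. Many hosts start with a C followed by a run of pyrimidines, the 5′ terminal oligopyrimidine (TOP) start also found on ribosomal protein mRNAs. GAS5 takes its name from its accumulation in growth-arrested cells.

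RefSeq lists 33 snoRNAs within the 9 genes. SNHG1 holds 8 and SNHG5 holds 2, all of the C/D type, and SNHG6 holds SNORD87. GAS5 holds 11, of which SNORA103 is of the H/ACA type by name, and ZFAS1 holds the 3 C/D snoRNAs SNORD12, SNORD12B and SNORD12C. SNHG7 holds the H/ACA snoRNAs SNORA17A and SNORA17B, SNHG8 holds SNORA24 and SNHG15 holds SNORA9. SNHG12 holds SNORD99 beside 3 H/ACA snoRNAs. A C/D snoRNA of 3 of the hosts is shown from the GENCODE 29 transcripts (GRCh38) to show what the introns carry. The capitals mark the letters TGATGA of the C box near the 5′ end and CTGA of the D box near the 3′ end.
SNORD27 (SNHG1, chr11:62855012-62855083, minus strand): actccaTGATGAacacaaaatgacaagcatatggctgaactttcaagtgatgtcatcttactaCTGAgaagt
SNORD50B (SNHG5, chr6:85677589-85677658, minus strand): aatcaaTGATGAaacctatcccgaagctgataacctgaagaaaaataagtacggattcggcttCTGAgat
SNORD12C (ZFAS1, chr20:49278940-49279028, plus strand): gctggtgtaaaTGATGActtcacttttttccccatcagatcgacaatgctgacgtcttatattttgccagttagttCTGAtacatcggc

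The snoRNAs themselves were hardly measured. The expression files held 23 snoRNA rows within the hosts, some of them for the same snoRNA, and 20 of these rows stayed under 0.1 FPKM in every library. All 20 overlapped an exon of at least 1 annotated transcript of the host, and the 3 rows that reached 1 FPKM overlapped none. SNORD99 ranged from 0.655 to 3.89 FPKM, SNORD12C from 1.55 to 4.49 FPKM and SNORD12B from 0.229 to 1.77 FPKM. All values given below for a host gene are those of its own row, from polyadenylated RNA, spliced or unspliced, and are not read as snoRNA levels. How reads within the stretches shared with a snoRNA were assigned is not given in the sources used here.

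Some starts of the host transcripts shared letters that the choice of the genes had not used. A TOP start was searched as a C at the first base followed by at least 4 further C or T letters, on the transcript strand. It was found in at least 1 GENCODE 29 transcript of 7 of the 9 hosts, with SNHG7 and SNHG15 as the exceptions, and in 15.9% of the 14651 tested genes with an annotated transcript. The same held for 27 of 50 protein-coding hosts (54%) and 8 of 22 other noncoding hosts (36.4%). Hosts have many annotated transcripts, so the share per transcript was also counted, and it came to 21 of 128 host transcripts (16.4%) against 2.41% of 206694 transcripts in the whole annotation. The first 25 bases of 1 such transcript of each of 6 hosts are shown, with the pyrimidine run in capitals. These letters are what the transcripts shown have in common with the ribosomal protein mRNAs. They are not the only annotated starts of these hosts. Such a start was found in 1 of 25 transcripts of SNHG1, 3 of 23 of SNHG5 and 6 of 29 of GAS5. For ZFAS1 it was 3 of 10, for SNHG8 1 of 5 and for SNHG12 4 of 17.
SNHG1: CTCCTgtctgcaggatttacgcgca
SNHG5: CTTTTacgtcggccttcgcgagcgt
GAS5: CTTTTCgaggtaggagtcgactcct
ZFAS1: CTTTCgcgtctgcggtgcccggagt
SNHG8: CTTTCacattcgggaagcgtcggga
SNHG12: CCTTTCTCCCCgccgcattcccggt

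The RefSeq promoter table matched 7 of the 9 hosts, all but SNHG6 and SNHG15. The letters TATA, which read the same on both strands, were searched between 40 and 20 bases before the annotated start. They stood there in 5 of the 7 promoters (71.4%), against 5.91% of the 35116 promoters in the table, 1 of 19 promoters of other noncoding hosts and 9 of 48 promoters of protein-coding hosts. Each sequence below runs from 40 bases before the start to 20 bases from it on the gene's own strand (GRCh38.p14, RefSeq), with TATA in capitals. In SNHG5, SNHG12 and ZFAS1 the motif was part of the letters TATATAA, at positions -32, -30 and -31 from the start. In SNHG7 it was part of the letters TATAAAA, at position -30.
SNHG5 (chr6:85678714-85678773, minus strand): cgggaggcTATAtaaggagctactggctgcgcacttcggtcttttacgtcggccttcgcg
ZFAS1 (chr20:49278602-49278661, plus strand): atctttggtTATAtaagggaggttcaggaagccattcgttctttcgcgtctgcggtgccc
SNHG12 (chr1:28581854-28581913, minus strand): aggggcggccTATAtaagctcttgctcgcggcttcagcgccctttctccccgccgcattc
SNHG7 (chr9:136728165-136728224, minus strand): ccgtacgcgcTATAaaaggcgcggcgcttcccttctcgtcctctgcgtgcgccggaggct
SNHG8 (chr4:118278722-118278781, plus strand): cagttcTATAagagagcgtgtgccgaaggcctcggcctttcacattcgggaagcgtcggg
SNHG1 (chr11:62855866-62855925, minus strand): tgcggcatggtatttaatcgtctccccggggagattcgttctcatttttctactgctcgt
GAS5 (chr1:173869026-173869085, minus strand): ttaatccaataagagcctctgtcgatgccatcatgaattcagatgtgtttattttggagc
For SNHG1 and GAS5 these letters were not in the window, and nothing about a factor follows from that. In both, the sequence shown does not hold the start of the transcript printed further above, so it is not the promoter of that transcript. The GAS5 window lies wholly upstream of position 173868882, the 5′ end of the gene in GENCODE 29.

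The libraries did not sort by their labels, and every comparison below rests on them. Pearson's r of log2(FPKM + 1) across all tested genes, which are not independent replicates, lay between 0.914 and 0.977 among 5 libraries, namely HepG2 WT 1 and 2, HepG2 SR 1, Huh7 WT 2 and Huh7 SR 2. Huh7 WT 1 and Huh7 SR 1 correlated with each other at 0.965 but with those 5 at 0.731 to 0.783. HepG2 SR 2 correlated with the 5 at 0.775 to 0.819 and with the Huh7 replicate 1 pair at 0.815 to 0.846. These 3 libraries are called the libraries that stand apart. The hepatocyte markers did not follow this split together. ALB (albumin) reached 2139 to 4713 FPKM in the HepG2 libraries, 604 and 2891 FPKM in Huh7 WT 2 and Huh7 SR 2, and 12.0 and 42.3 FPKM in Huh7 WT 1 and Huh7 SR 1. FGB (fibrinogen beta chain) went the other way, at 128, 380 and 327 FPKM in HepG2 SR 2, Huh7 WT 1 and Huh7 SR 1 and at 0.386 to 4.51 FPKM in the other 5 libraries. HNF4A, a defining transcription factor of hepatocyte-like cells, was present in every library at 22.2 to 68.5 FPKM. Whatever sets these libraries apart cannot be told apart from the group differences in which they take part.

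The C/D hosts come first, starting with SNHG1, whose introns give rise to a series of C/D snoRNAs. Its level was 11.1 and 21.8 FPKM in the HepG2 WT libraries and 40.6 and 127 FPKM in the HepG2 SR libraries. In Huh7 it was 31.1 and 47.2 FPKM in WT and 57.6 and 64.9 FPKM in SR. SNHG1 was the only one of the 9 hosts in which both SR libraries lay above both WT libraries in both cell lines. Of all genes tested, 18.1% separated in this way in HepG2 and 9.06% in Huh7, and the share for both lines together was not counted. Since the hosts were chosen with this difference in view, nothing is read from the separation. The change of SNHG1 on the log2(FPKM + 1) scale, used for all changes below, was 2.14 ± 0.60 (SE) in HepG2 and 0.66 ± 0.60 in Huh7. Without HepG2 SR 2 the HepG2 change fell to 1.32. The lowest-to-highest order of its group means ran HepG2 WT, Huh7 WT, Huh7 SR and HepG2 SR, at 16.5, 39.2, 61.3 and 83.9 FPKM, and of the neighbors in this order only Huh7 SR and HepG2 SR overlapped.

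GAS5, host of the largest number of snoRNAs among the 9, also had the highest median level of the 9 over the 8 libraries, 98.97 FPKM. The HepG2 WT libraries had 57.1 and 59.8 FPKM and the HepG2 SR libraries 94.7 and 129.8 FPKM, with no overlap. The Huh7 WT libraries had 55.8 and 296.5 FPKM and the Huh7 SR libraries 103.3 and 120.45 FPKM, so that the SR libraries lay between the WT libraries. The HepG2 change was 0.91 ± 0.72 (SE) and the Huh7 change was -0.21 ± 0.72. The sign in Huh7 turned on the WT library kept. It was -1.40 without Huh7 WT 1 and 0.99 without Huh7 WT 2.

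ZFAS1, named for its place antisense to ZNFX1, overlapped between SR and WT in both lines. Its HepG2 values were 56.6 and 51.3 FPKM in WT and 86.5 and 45.0 FPKM in SR, the SR libraries lying on either side of WT. Its Huh7 values were 31.2 and 362 FPKM in WT and 62.1 and 86.9 FPKM in SR, with SR between the WT libraries. The changes were 0.21 ± 1.02 (SE) in HepG2 and -0.54 ± 1.02 in Huh7. ZFAS1 was the only host with a negative change over both lines, -0.16.

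SNHG5, a host of the SNORD50 pair, had 48.7 and 68.9 FPKM in HepG2 WT and 94.0 and 73.2 FPKM in HepG2 SR. The SR libraries were both higher, though HepG2 SR 2 exceeded HepG2 WT 2 by little. In Huh7 the values were 19.5 and 150.8 FPKM in WT and 51.1 and 78.7 FPKM in SR, again with SR between the WT libraries. SNHG6, which hosts SNORD87, went from 26.7 and 35.8 FPKM in HepG2 WT to 52.5 and 117.4 FPKM in HepG2 SR without overlap. Its Huh7 libraries overlapped, at 53.2 and 85.6 FPKM in WT and 122.9 and 48.0 FPKM in SR. The HepG2 changes were 0.51 for SNHG5 and 1.32 for SNHG6, and those in Huh7 were 0.21 and 0.19.

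Among the hosts of H/ACA snoRNAs, SNHG7 was nearly the same in both HepG2 WT libraries, at 18.9 and 19.0 FPKM, and stood at 37.1 and 51.6 FPKM in HepG2 SR. In Huh7 it was 14.6 and 37.4 FPKM in WT and 46.1 and 30.3 FPKM in SR, with overlap. SNHG8 likewise kept to 13.4 and 14.002 FPKM in HepG2 WT and reached 25.3 and 41.6 FPKM in HepG2 SR. In Huh7 WT it held the lowest and the highest of its 8 values, 3.90 and 76.9 FPKM, with 18.1 and 14.6 FPKM in SR. SNHG12 had 6.52 and 8.68 FPKM in HepG2 WT and 14.3 and 16.8 FPKM in HepG2 SR. Its Huh7 values were 6.94 and 24.8 FPKM in WT and 13.3 and 15.3 FPKM in SR, with SR inside the WT range. The changes in HepG2 were 1.17, 1.19 and 0.95 in this order, and those in Huh7 were 0.65, -0.18 and 0.10.

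SNHG15 behaved unlike the other 8. It was at 25.3 FPKM in HepG2 SR 2, 4.70 FPKM in Huh7 WT 1 and 10.6 FPKM in Huh7 SR 1. In the other 5 libraries it did not exceed 0.035 FPKM, and it was listed at 0 in HepG2 SR 1. The libraries with SNHG15 were thus the 3 that stand apart, and those without it were the 5 that correlated with one another. Its HepG2 change of 2.31 became -0.05 without HepG2 SR 2, so no difference between SR and WT as groups can be read from it. Of the 8 protein-coding genes within 200000 bases on either side of it, 5 reached the level for testing and were present in every library. PPIA ranged from 183 to 778 FPKM, H2AZ2 from 21.97 to 52.9 FPKM, PURB from 3.23 to 9.48 FPKM, CCM2 from 8.59 to 17.9 FPKM and TBRG4 from 25.9 to 49.3 FPKM. The other 3, MYO1G, NACAD and RAMP3, did not exceed 1.02 FPKM, and RAMP3 was listed at 0 in all 8 libraries. Whether the gene was absent or its RNA was not counted in these 5 libraries was not tested.

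Over the 9 hosts, HepG2 SR was higher than HepG2 WT for 9 of 9, with a median change of 1.17 against -0.03 over all genes tested, of which 47.6% were higher. Both SR libraries lay above both WT libraries for 7 of the 9, where the same held for 18.1% of all genes tested. Because the hosts were picked with this contrast known, nothing is read from these shares. In bulk RNA a change in the share of cells that express a gene and a change in RNA per cell cannot be told apart. Leaving out HepG2 SR 2, the library that stands apart, lowered the median to 0.74, with 8 of the 9 hosts higher.

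In Huh7, 6 of 9 hosts had a higher mean of log2(FPKM + 1) in SR, and the median change was 0.19 against -0.05 over all genes tested. The libraries separated without overlap only for SNHG1, where 9.06% of all genes tested did so upward. The median became -0.75 without Huh7 WT 1 and 0.99 without Huh7 WT 2. Without the 3 libraries that stand apart it was -0.82, and 1 of 9 hosts was then higher in SR. This left only Huh7 SR 2 and Huh7 WT 2 in Huh7, so it is the same comparison of 1 library with 1 library as the one given by number below. The 8 hepatocyte markers that were checked, ALB and HNF4A among them, were higher in Huh7 SR for 8 of 8. Their median change was 1.62. In HepG2 SR 6 of 8 were higher, with a median of 0.35. Of all genes tested, 44.7% were higher in Huh7 SR and 47.6% in HepG2 SR. The Huh7 SR and WT libraries overlapped for some of the 8 markers, such as ALB and FGB, and not for others, such as HNF4A. The summed level of the 8 markers was 618 and 1082 FPKM in Huh7 WT and 807 and 5091 FPKM in Huh7 SR. In HepG2 it was 4389 to 7496 FPKM. None of the 8 was at 0 in any library, and the part of these markers in the host values was not tested.

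**Figure D1:**
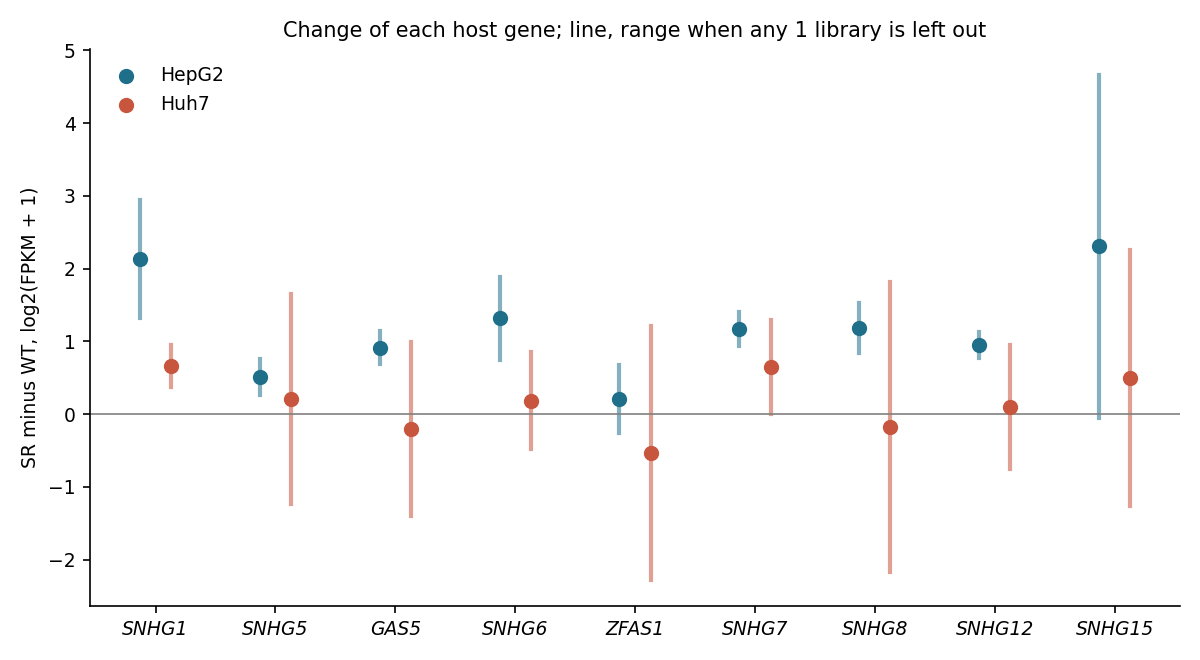
Difference between SR and WT on the log2(FPKM + 1) scale for each host gene (points) in HepG2 and Huh7, with a line over the range of values obtained when any 1 of the 8 libraries is left out. In HepG2 the lines stay above 0 except for ZFAS1 and SNHG15, and in Huh7 they cross 0 except for SNHG1.

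Huh7 WT 2 gave the highest value of all 8 libraries for 5 hosts, SNHG5, SNHG8, SNHG12, GAS5 and ZFAS1, as it did for 19.6% of all genes tested. Huh7 WT 1 gave the lowest value for 5 hosts, against 14.9% of all genes tested. The summed level of the 9 hosts was 1081 FPKM in Huh7 WT 2 and 221 FPKM in Huh7 WT 1. The other 6 libraries lay between them, at 239 and 279 FPKM in HepG2 WT, 445 and 628 FPKM in HepG2 SR, and 485 and 459 FPKM in Huh7 SR. The difference between the 2 Huh7 WT libraries was thus larger than that between SR and WT in either line. Between these libraries SNHG8 differed by 19.7 times, ZFAS1 by 11.6 times, SNHG5 by 7.75 times and GAS5 by 5.32 times, while SNHG1 differed by 1.52 times.

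When the Huh7 libraries were set side by side by number, Huh7 SR 1 exceeded Huh7 WT 1 for 9 of 9 hosts, with a median difference of 1.02, and for 49.9% of all genes tested. Huh7 SR 2 exceeded Huh7 WT 2 for 1 of 9 hosts, SNHG1, with a median difference of -0.82, and for 41.3% of all genes tested. The signs were thus opposite for 8 of the 9 hosts, the smallest fall being -0.03 for SNHG15, and each comparison is of 1 library with 1 library and has no replicate.

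**Figure D2:**
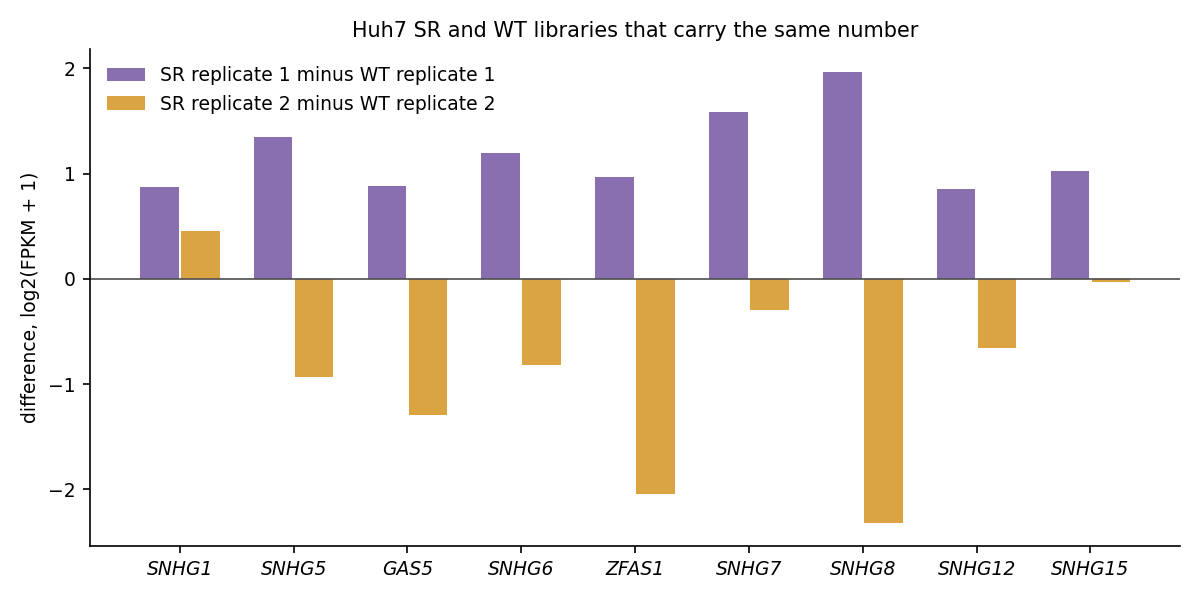
Difference in log2(FPKM + 1) between Huh7 SR and Huh7 WT for the libraries numbered 1 and for those numbered 2, as bars from 0 for each host gene. All 9 bars of the libraries numbered 1 point up and 8 of the 9 bars of the libraries numbered 2 point down, with SNHG1 the exception.

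Some genes of amino acid shortage also stood high in Huh7 WT 2. The list of 15 such genes was drawn up after values of these libraries had been seen and was therefore not tested. Of these 15, 7 were highest in Huh7 WT 2, among them SLC3A2, TRIB3 and SLC7A11, as were 19.6% of all genes tested. The summed level of the 15 was 1754 FPKM there, to which SLC3A2 gave 635.9 FPKM and TRIB3 271 FPKM. In the other 7 libraries the sum was 576 to 1163 FPKM. The 1163 FPKM belonged to Huh7 WT 1, where 4 of the 15 were highest and the summed level of the hosts was lowest. ATF4 was at 229 FPKM in both Huh7 WT libraries. The high values were not limited to Huh7 WT 2. In Huh7, 0 of the 15 were higher in SR than in WT, with a median change of -1.16, against 44.7% of all genes tested. In HepG2, 8 of the 15 were higher in SR, with a median change of 0.08, against 47.6% of all genes tested. SLC3A2, which encodes the heavy chain of amino acid transporters, starts 188 bases from SNHG1 and is read from the opposite strand. It was at 635.9 FPKM in Huh7 WT 2 and at 98.6 to 186 FPKM elsewhere, whereas SNHG1, at 47.2 FPKM in Huh7 WT 2, was higher in 3 other libraries. The part of this library's state in the host values was not tested.

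Protein-coding genes overlap 5 further hosts on the opposite strand, and no source used here says that reads were assigned by strand, so that reads from the shared stretches cannot be told apart. MCMDC2, which overlaps SNHG6, did not exceed 0.530 FPKM, and ZBTB37, which overlaps GAS5, did not exceed 1.72 FPKM. TRNAU1AP, which overlaps SNHG12, ranged from 5.48 to 10.8 FPKM and was lowest in HepG2 SR 2, where SNHG12 was at 16.8 FPKM. ZNFX1, which overlaps ZFAS1, ranged from 7.08 to 18.2 FPKM and was at 9.83 FPKM in Huh7 WT 2, where ZFAS1 peaked. DIPK1B, which overlaps SNHG7, was at 18.3, 11.2 and 14.2 FPKM in the libraries that stand apart and at most 0.786 FPKM in the other 5. SNHG7 showed no such split, with 51.6, 14.6 and 46.1 FPKM in those 3 libraries.

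The contrast between the cell lines is not the difference named above as in view when the hosts were chosen, and it was tested. The hosts were still chosen on values of these same libraries, so the test may not be independent of that choice. Over SR and WT together, Huh7 was higher than HepG2 for 7 of 9 hosts, with a median difference of 0.32 against 0.03 over all genes tested. Without Huh7 WT 2, Huh7 was higher for 3 of 9 hosts. No host passed the thresholds of the study, an unadjusted p under 0.05 with a change of at least 0.5 in size, in this contrast, where 4.9% of all genes tested passed them in either direction. Adjusted p by limma with the Benjamini-Hochberg method ranged from 0.818 to 0.986 over the hosts. The largest differences were 0.60 (95% confidence interval -1.12 to 2.33) for ZFAS1 and 0.57 (-0.63 to 1.77) for GAS5, so that a difference between the lines of up to several-fold in either direction is within these intervals. No gene of the 15173 passed an adjusted p of 0.05 in any of the comparisons, and at an unadjusted p under 0.05 limma counted 325 genes in HepG2, 283 in Huh7, 597 over both lines, 744 between the lines and 92 for the difference of the SR effect between the lines.

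The difference between SR and WT was smaller in Huh7 than in HepG2 for all 9 hosts, by 0.30 to 1.81, with a median difference of -1.12 against -0.04 over all genes tested. Since its terms had been seen when the hosts were chosen, this stands as a description. It also depended on a single library. Without Huh7 WT 2, the difference between SR and WT was larger in Huh7 than in HepG2 for 5 of the 9 hosts.

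Other noncoding snoRNA hosts showed in part the same direction. This list and the lists that follow were also chosen with earlier results of these data known. Their counts, calls and p-values for SR against WT therefore stand as descriptions and are no independent test. Of 22 listed, 17 reached the level for testing. Over both lines 14 of the 17 were higher in SR, with a median change of 0.48, and 3 passed the thresholds upward and none downward, where 1.9% of all genes tested passed upward. These 3 were SNHG4, SNHG19 and SNHG26, none of which passed after adjustment by limma (adjusted p = 0.998 for each). With 1 library left out, SNHG4 passed the thresholds in 3 of 8 fits and SNHG19 and SNHG26 in 2 each. SNHG4 went from 11.8 ± 2.03 to 21.9 ± 10.3 FPKM in HepG2 and from 16.1 ± 0.95 to 29.02 ± 4.31 FPKM in Huh7 (WT to SR, mean ± SD, n = 2), with no overlap in either line. SNHG26 went from 1.82 ± 0.13 to 4.07 ± 0.89 FPKM in HepG2 and from 3.01 ± 0.44 to 4.58 ± 0.11 FPKM in Huh7, also with no overlap. SNHG19 went from 6.48 ± 0.32 to 14.4 ± 0.42 FPKM in HepG2, while its Huh7 libraries overlapped, at 3.65 and 15.2 FPKM in WT and 23.9 and 13.3 FPKM in SR. In Huh7 alone the median of the 17 was 0.48, and it became -0.013 without Huh7 WT 1 and 0.024 without the 3 libraries that stand apart.

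Protein-coding hosts, mostly genes for ribosomal proteins and nucleolar or translation factors, gave smaller changes. All 50 listed were tested. In HepG2 43 of 50 were higher in SR with a median change of 0.44, and in Huh7 33 of 50 were higher with a median of 0.14. Of all genes tested, 47.6% were higher in HepG2 SR and 44.7% in Huh7 SR. Over both lines RPL7A, RPL23 and RPL23A, each a protein of the large ribosomal subunit, passed the thresholds upward, 3 of 50 where 1.9% of all genes tested did so, and none passed downward. RPL7A had 317 and 312 FPKM in the parental HepG2 libraries and 326 and 616 FPKM in the resistant ones. In Huh7 the levels were 233 and 189 FPKM in parental and 413 and 401 FPKM in resistant cells, without overlap. The changes over both lines were 0.73 for RPL7A, 0.64 for RPL23 and 0.74 for RPL23A (limma, adjusted p = 0.998 for each). With 1 library left out, RPL23A passed in 3 of 8 fits and the others in 2 each. RPL4, named after its values were seen, was the only protein-coding host to pass upward in HepG2, where 0.877% of all genes tested passed, and it rested on HepG2 WT 1, at 90.4 FPKM against 346 FPKM in HepG2 WT 2, with a change of 0.49 when the first was left out.

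Genes for proteins that bind and assemble snoRNAs, the snoRNP proteins, were higher in HepG2 SR for 17 of 17, with a median change of 0.43. In Huh7 they were higher for 7 of 17, with a median of -0.08. The shares of all genes tested were 47.6% and 44.7%. Over both lines FBL, the fibrillarin methyltransferase of C/D particles, and PIH1D1, an assembly factor, passed the thresholds upward, 2 of 17 where 1.9% of all genes tested did so, and none passed downward. FBL went from 31.97 ± 5.42 to 82.4 ± 34.1 FPKM in HepG2 and from 40.1 ± 6.39 to 57.1 ± 20.01 FPKM in Huh7 (WT to SR, mean ± SD, n = 2), the Huh7 libraries overlapping. PIH1D1 went from 34.2 ± 7.12 to 50.2 ± 1.79 FPKM and from 33.4 ± 3.42 to 51.2 ± 0.82 FPKM, without overlap in either line. Neither passed after adjustment by limma (adjusted p = 0.998 for both), and with 1 library left out FBL passed the thresholds in 4 of 8 fits and PIH1D1 in 1.

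Genes that act on the decay or translation of host RNA showed no called change over both lines, where 3.93% of all genes tested passed in either direction. Of 18 nonsense-mediated decay factors 6 were higher in SR, with a median of -0.15. The lowest were NBAS at -0.61 and the decay kinase gene SMG1 at -0.57, and the highest were EIF4A3 of the exon junction complex at 0.39 and UPF3B at 0.35. Of 12 genes for LARP1, which binds TOP mRNAs, and the mTORC1 kinase pathway that controls it, 5 were higher, with a median of -0.03. TSC2 at -0.33 and MTOR at -0.28 were the lowest, and MLST8 at 0.32 and EIF4EBP1 at 0.27 the highest of those with a mean of at least 1 FPKM. None of these values passed the test.

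The genes whose pattern was most like the mean of the 9 hosts were ranked by the root mean square distance over the 8 libraries, after the mean of each profile was subtracted on the log2(FPKM + 1) scale. That mean includes SNHG15, the host farthest from it, so the ranking rests in part on that gene. The nearest was DPH5, an enzyme of diphthamide synthesis on translation elongation factor 2, at a distance of 0.24. NOP58, a core protein of the C/D particles, came next at 0.24, followed by MIR6850, AVIL and MIA-RAB4B at 0.25 to 0.26. The median distance of all genes tested was 0.81, and the hosts themselves stood between 0.25 for SNHG12 and 1.65 for SNHG15. DPH5 ranged from 7.84 FPKM in HepG2 WT 1 to 23.9 FPKM in HepG2 SR 2. NOP58 was at 31.2 and 33.4 FPKM in HepG2 WT, 52.3 and 74.3 FPKM in HepG2 SR, 44.1 and 86.9 FPKM in Huh7 WT and 68.9 and 53.6 FPKM in Huh7 SR. NOP58 was separated between SR and WT in HepG2 and overlapped in Huh7, as did SNHG5, SNHG6, SNHG7, SNHG8, SNHG12 and GAS5. It had been picked for its likeness to the host mean over these same libraries, so nothing is read from this match. MIR6850, AVIL and MIA-RAB4B did not exceed 2.47 FPKM in any library, where the added 1 compresses differences.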

How the data were processed

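RNA sequencing had been made from oligo(dT)-selected RNA with a kit that is not stated to keep strand. The deposited values were FPKM per Ensembl gene, computed by the authors for each library. The submitters' processing notes name fastp 0.20.0 and GRCh38, and the aligner and the counting tool are not given in the sources used here. Raw counts were not used here. Fragment numbers estimated from the spacing of low FPKM values, 28300000 to 55900000 per library, rest on a weak step signal and served no test. Of 63241 genes, 62666 were paired with a symbol.

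FPKM values were turned into log2(FPKM + 1), and 15173 genes with at least 1 FPKM in at least 2 libraries were fitted with limma 3.58.1 in R 4.3.3 (a mean for each of 4 groups, eBayes with trend), with p-values adjusted by Benjamini-Hochberg. The study's own test needs counts and was replaced for this reason. Calls used the study's thresholds, an unadjusted p under 0.05 and a log2 change of at least 0.5 in size. The log2(FPKM + 1) scale understates changes of low genes. The fit was tested on simulated data. Descriptive steps used Python 3.11.15 with pandas 2.3.3, NumPy 2.4.6 and matplotlib 3.10.9.

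The 9 genes and the lists (other noncoding hosts, protein-coding hosts, snoRNP proteins, nonsense-mediated decay factors, LARP1 and mTORC1 genes, hepatocyte markers) were chosen with earlier results of these data known. The list of amino acid shortage genes was added after values were seen. Named genes were all 9 hosts, the genes of the first 5 lists called over both lines or else the 2 largest rises and falls with a mean of at least 1 FPKM, protein-coding genes that overlap a host or start within 1000 bases of it, and the 5 genes nearest to the mean host profile. Just 1 item under this rule is not reported here. Alternatives covered the pseudocount (0.1), the filter, rescaling, quantile normalization, separate fits, a replicate block, eBayes without trend and leaving out libraries.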

Additional observations from a re-analysis of the deposited data

How the results depend on the processing

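The median change of the 9 hosts in HepG2, 1.17, kept its sign under every alternative tried, from 0.74 to 1.40. The hosts were chosen with the difference between SR and WT in these libraries in view, so nothing is read from the kept sign. Leaving out the 3 libraries that stand apart moved the Huh7 median of the hosts from 0.19 to -0.82 and that of the other noncoding hosts from 0.48 to 0.024, and turned that of the hosts over both lines from 0.52 to -0.039. Leaving out 1 library at a time gave -0.75 to 0.99 for the hosts in Huh7, -0.013 to 0.67 for the other noncoding hosts in Huh7 and 0.012 to 0.72 for these over both lines, so that both Huh7 medians changed sign. The lowest of each came without Huh7 WT 1 and the highest without Huh7 WT 2. The median difference of the hosts between the lines, 0.32, became -0.11 without Huh7 WT 2. Counts of genes called at the study's thresholds depended strongly on single libraries. They were 325 in HepG2 (57 to 1749 with 1 library left out), 283 in Huh7 (154 to 818), 596 over both lines (193 to 1277), 744 between the lines (236 to 1735) and 92 for the difference of the SR effect (24 to 945). Without the 3 libraries that stand apart they were 1777 in Huh7, 1439 over both lines, 1263 between the lines and 940 for the difference, and such fits leave groups with 1 library, which is then assumed to vary like the others. With the adjusted p all 5 counts were 0. A minimum of 0.1 FPKM gave 504 in HepG2 and 254 for the difference, no filter gave 168 for the difference, and Huh7 fitted alone gave 124. The cause of these movements was not tested. Replicate numbers are shared by all groups, but nothing in the labels says that they mark a pairing. Over all genes tested, the difference between replicates 1 and 2 correlated at 0.12 between HepG2 WT and SR and at 0.80 between Huh7 WT and SR, with 2 pairs in each. With the replicate block the counts were 328 in HepG2, 234 in Huh7, 516 over both lines, 780 between the lines and 91 for the difference, and the changes of the hosts stayed as they were, as the design is balanced. Rescaling each library to the same sum shifted the median of all genes to -0.12 in HepG2 and -0.14 in Huh7, and 9 and 6 hosts were still higher in SR.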
